A study of Mus musculus with 13 samples.

Results

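The sites described here are cytosines within introns of the mouse genome that were neither mostly methylated nor mostly unmethylated in the liver of mice on the leaner of 2 diets. They were chosen by the authors' annotation flags and by 1 measured value, the average methylation in low fat/low sucrose mice. A site was taken if it was flagged as intronic, was not flagged as exon, promoter, CpG island or island shore, lay on an autosome, and had a low fat/low sucrose average from 30 to below 70%. Of the 23904 sites in the authors' deposited table, 1947 met these conditions. They are 1947 of the 7685 autosomal intronic sites with the same annotation, of which 2368 had a lower average and 3370 a higher one.

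Liver DNA of 13 mice was measured by targeted bisulfite sequencing, 7 mice fed a low fat/low sucrose diet and 6 fed a high fat/high sucrose diet. The sources used here do not give the strain, sex or age of the mice, the length of feeding or any further treatment, and do not say whether the 13 mice were housed or processed in batches. The table holds the authors' comparison of the diets, with 1 average per diet and site and no value per mouse, so no spread between mice can be given and no test across mice was run. All sites in it had a q-value below 0.01 and an absolute difference of at least 5 percentage points, and the read depth behind each value is unknown.

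Cytosine methylation in mammals sits mainly at CpG dinucleotides, and most CpGs in the bodies of genes are densely methylated. Promoter CpG islands are usually free of it. An average between the extremes in a whole tissue arises when only some of the DNA molecules carry the mark, because cell types, alleles or single cells differ. In an average over several mice it can also arise because the mice differ, and no value per mouse is given here. Many tissue-specific enhancers lie in introns, and transcription factor binding there is known to go with reduced methylation. Liver is a mixture of hepatocytes with endothelial cells, macrophages, lymphocytes, stellate cells and bile duct cells, and a change in this mixture cannot be told apart from a change within 1 cell type in such averages.

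Because the low fat/low sucrose average chose the members and also enters the difference between diets, directions and sizes are given as descriptions. Levels are written with the low fat/low sucrose average first and the high fat/high sucrose average second. A difference is the authors' listed value in percentage points, positive where the high fat/high sucrose level was the higher one. Genes are those of the nearest listed transcription start, so that a site need not lie within the gene that names it.

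Members moved both ways, with rises somewhat more frequent. On the high fat/high sucrose diet 1110 of the 1947 members (57.0%) were higher and 837 (43.0%) lower. Of all 23654 autosomal sites, 57.7% were higher, so the members' share lay near that of the table as a whole. The rises had a median of 14.3 points, with quartiles of 11.7 and 17.8, and the falls a median of -14.0 points, with quartiles of -17.4 and -11.5. The smallest rise was 7.48 points and the smallest fall -6.99 points. Only sites with an absolute difference of at least 5 points were listed, so values near 0 could not occur.

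**Figure D1:**
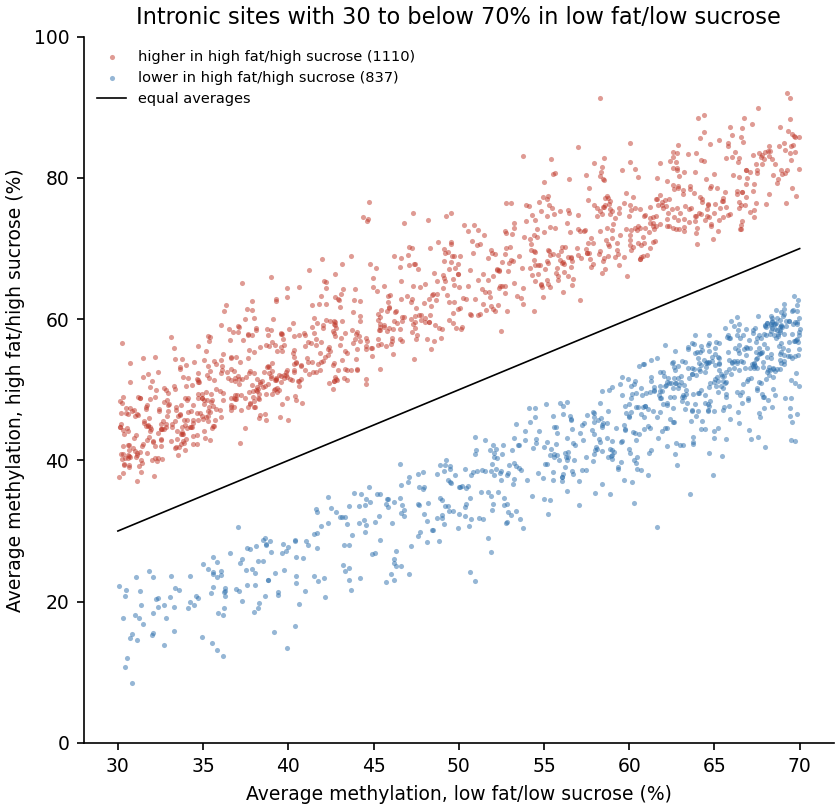
Average methylation of each of the 1947 members in low fat/low sucrose mice (horizontal axis, %) against high fat/high sucrose mice (vertical axis, %), with 1 point per site and the line of equal averages. The 1110 higher sites lie above the line and the 837 lower sites below it, and higher sites thin out towards 70% on the horizontal axis while lower sites become denser.

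Differences at these sites were large in points. An absolute difference of 10 points or more was listed at 1727 members (88.7%), beside 64.9% of all autosomal sites, 64.9% of the low-baseline and 57.8% of the high-baseline intronic sites. At least 20 points were listed at 143 rising and 92 falling members, together 12.1%, beside 5.15% of low-baseline and 3.80% of high-baseline intronic sites. The median absolute difference was 14.2 points, against 11.5 and 10.8 points in those groups. The baseline level separates the 3 groups by construction, so no test of these gaps is given. It also limits how far a site can move either way. The smallest listed rise was 7.48 points in the members, against 5.04 points in the low-baseline and 5.01 points in the high-baseline sites. How much of the gap in size comes from the limits for listing was not tested. The median q-value of the members was 0.00317, close to the 0.00338 of all autosomal sites.

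The rising members started lower than the falling ones. Rises went from a median of 46.6% to 61.7%, and falls from 59.97% to 44.6%. Of the 865 members below 50% on the low fat/low sucrose diet, 412 reached 50% or more on the other diet. Of the 1082 members at 50% or more, 334 dropped below it. In high fat/high sucrose mice 350 members stood at 70% or more and 148 below 30%, while 1449 (74.4%) stayed within the limits that had defined them. Over all members the median barely differed between diets, 52.8% and 53.1%, while the mean was 51.6% and 53.8%.

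Direction changed steeply with the starting level even inside this middle range. Of the 477 members with a low fat/low sucrose average of 30 to 40%, 79.0% were higher on the high fat/high sucrose diet. The share was 68.8% of 388 members at 40 to 50%, 53.9% of 432 members at 50 to 60% and 35.8% of 650 members at 60 to 70%. The sizes hardly followed the level, with median rises of 13.7 to 15.0 points and median falls of -13.6 to -14.99 points in these bins. The average that placed the sites also enters the difference, and how much of the slope comes from the placement was not tested. When intronic sites were instead placed by the high fat/high sucrose average, the share higher also fell across the same range, from 84.5% at 30 to 40% to 25.8% at 60 to 70%. Placed by the mean of the averages it fell from 85.8% to 30.1%.

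**Figure D2:**
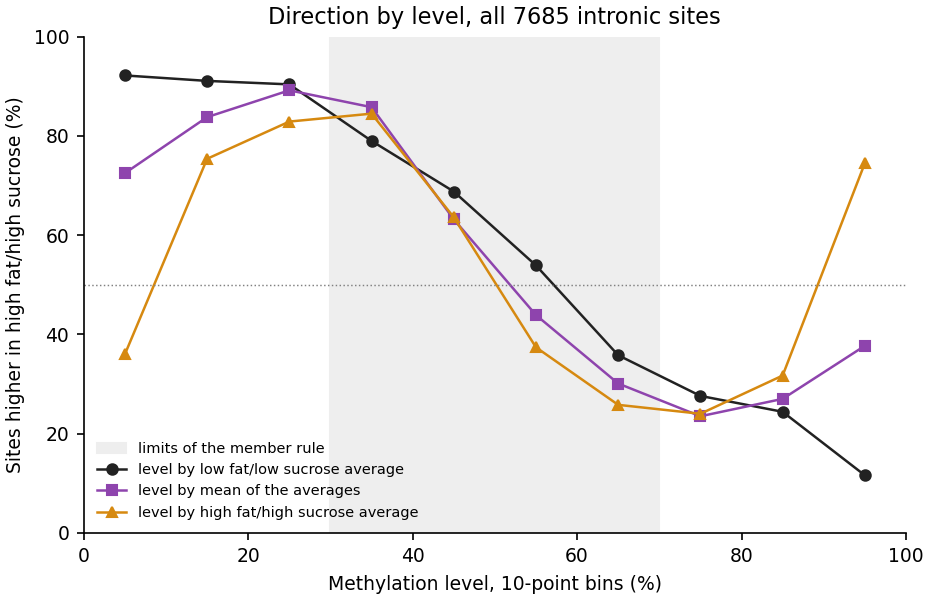
Share of the 7685 intronic sites with the higher level on the high fat/high sucrose diet (vertical axis, %) in 10-point bins of methylation level (horizontal axis, %), with the level taken from the low fat/low sucrose average (circles), the mean of the averages (squares) or the high fat/high sucrose average (triangles). All 3 lines fall through the shaded range of 30 to 70%, and they separate at the ends of the scale.

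The limits of 30 and 70% did not mark a step. Among intronic sites within 1 point of the lower limit, 61 of 71 just outside (85.9%) and 42 of 52 just inside (80.8%) were higher. At the upper limit 21 of 74 just inside (28.4%) and 32 of 99 just outside (32.3%) were higher. Below the range, 91.0% of the low-baseline intronic sites were higher, and above it 21.3% of the high-baseline ones. With sites placed by the low fat/low sucrose average, the members thus cover the stretch of the scale in which direction turned over. Placed by the high fat/high sucrose average, direction also turned outside that stretch. The share higher was then 36.0% at 0 to 10% and 75.4% at 10 to 20%, and 31.7% at 80 to 90% and 74.5% at 90 to 100%. Placed by the mean of the averages, it was 72.5% at 0 to 10% and 37.7% at 90 to 100%.

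Members were spread over all autosomes and far from starts. Counts ran from 65 on chromosome 19 to 152 on chromosome 11, and the share higher from 47.5% on chromosome 13 to 70.8% on chromosome 19. The median absolute distance to the listed start was 17517 bp, with quartiles of 6480 and 38856 bp, against 13653 bp for low-baseline and 16352 bp for high-baseline intronic sites. More than 50000 bp separated 368 members (18.9%) from the start. The share higher stayed between 53.9% and 59.5% in every band of distance, from under 2000 bp to over 100000 bp. Distances in the authors' deposited table are signed along the strand of the transcript, and 529 members (27.2%) lay upstream of the listed start, 52.0% of them higher, against 58.9% of the 1418 downstream. An intronic site upstream of its listed start lies in an intron of another transcript.

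Most members stood alone. Joined within 1000 bp they formed 1707 clusters, and 1529 members (78.5%) had no other member in their cluster, against 1420 of 2368 low-baseline intronic sites and 77.4% of the high-baseline ones counted in the same way. Where members did lie close together they moved together. All 41 consecutive pairs up to 10 bp apart and all 98 at 10 to 50 bp shared a direction, as did 36 of 38 pairs at 50 to 100 bp (94.7%), 19 of 22 at 100 to 200 bp (86.4%) and 33 of 41 at 200 to 1000 bp (80.5%). At 1000 to 5000 bp the share was 73.0% of 37 pairs and at 5000 to 20000 bp 60.5% of 81. The median gap between the differences of a pair grew from 1.52 points up to 10 bp to 8.73 points at 5000 to 20000 bp. Neighbouring cytosines can be read on the same DNA fragments, so these pairs are not independent measurements.

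**Figure D3:**
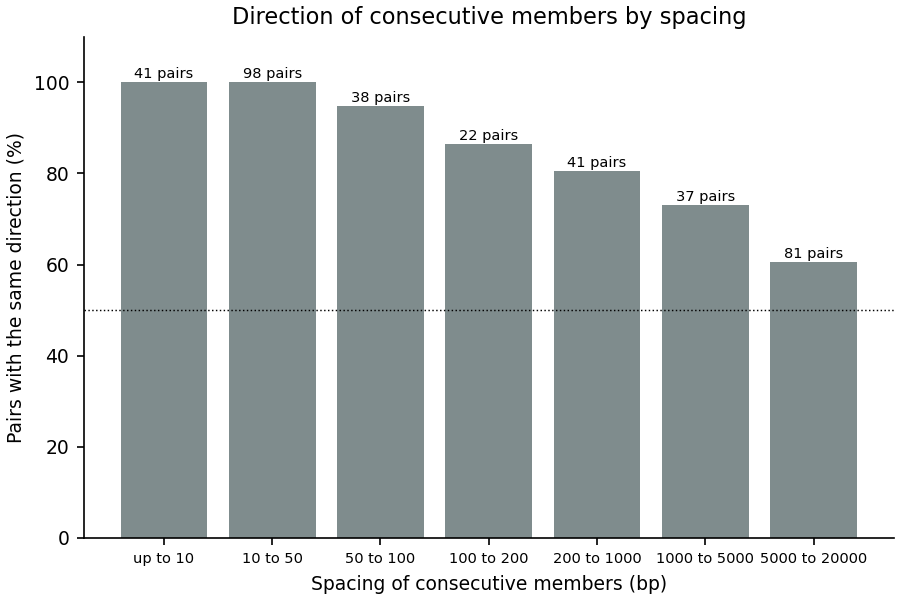
Share of consecutive members with the same direction of difference (vertical axis, %) by the spacing between them (horizontal axis, bp), with the number of pairs above each bar and a dotted line at 50%. The share falls from 100% for pairs up to 50 bp apart to 60.5% at 5000 to 20000 bp.

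Listed sites that were not members carried the same direction nearby. Within 100 bp, 196 of 206 nearest non-members (95.1%) moved the same way as the member, against 36 of 47 (76.6%) at 100 to 200 bp and 85 of 119 (71.4%) at 200 to 1000 bp. Within 1000 bp the direction matched at 141 of 163 neighbours with a baseline below 30% (86.5%) and at 168 of 198 with 70% or more (84.8%). The neighbours come from the same 13 mice and the same comparison.

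The largest rise belonged to Nmnat2, which encodes an enzyme of NAD synthesis best known from neurons. In the authors' deposited table its site on chromosome 1 at 154879402, 77173 bp downstream of the start (build mm9), went from 44.7 to 76.5%, a difference of 31.7 points (q = 6.70e-05). The biliverdin reductase gene Blvra followed, with a site on chromosome 2 at 126917947, 11695 bp downstream, that went from 44.6 to 73.9% in the authors' deposited table (31.6 points, q = 4.62e-05). The third was Bcl11b, a zinc finger transcription factor gene needed for T cell development. Its site on chromosome 12 at 109164612 went from 58.3 to 91.3% in the authors' deposited table (31.5 points, q = 5.12e-08). All 3 ended above the upper limit of 70%, Bcl11b the farthest.

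The other 7 of the 10 largest rises started between 31.5 and 57.5%. The authors' deposited table lists 29.2 points at Zfp746, a zinc finger repressor gene, and 28.9 at Svil, which encodes an actin-binding membrane protein. Next, per the authors' deposited table, came 27.5 points at the lymphocyte kinase gene Stk10 and 26.9 at Tbc1d8. The transcriptional coactivator genes Eya2 (26.8 points) and Mkl1 (26.4) and the synaptic adhesion gene Lrfn5 (26.3) completed the group in the authors' deposited table. Only Zfp746 and Mkl1 of the 10 had a site upstream of the listed start, 86323 and 2178 bp away.

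The largest fall with a gene was at Akap6, which encodes an anchor of protein kinase A. The authors' deposited table puts this site on chromosome 12 at 53930077, 25631 bp upstream of the start, with averages of 69.5 and 42.9% and a difference of -28.3 points (q = 3.40e-05). A site without a gene had a slightly larger fall, -29.0 points. Of the 4 members at Akap6, 2 were higher and 2 lower, and all 5 other sites listed for it were higher. Uri1, a chaperone-like gene, fell from 63.5 to 35.2% (-26.8 points) in the authors' deposited table. The fall at Tmem132b was -26.1 points, to 23.8%, and that at the glutamate transporter gene Slc1a7 was -26.1 points, to 35.3%, in the authors' deposited table.

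Hk2, which encodes a hexokinase that traps glucose in the cell, stood next among the falls. Its site on chromosome 6 at 82714343, 10106 bp downstream of the start, went from 55.3 to 34.5% in the authors' deposited table (-26.0 points, q = 0.00134). Further falls among the 10 largest with a gene, per the authors' deposited table, were at Gm6792 (-25.5 points), Ssbp3 (-24.96), the interferon-induced gene Oas2 (-24.6) and the calcineurin inhibitor gene Rcan1 (-24.4). Of these 10, 5 lay upstream of the listed start. Over all members, 18 rises and 8 falls reached 25 points.

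**Figure D4:**
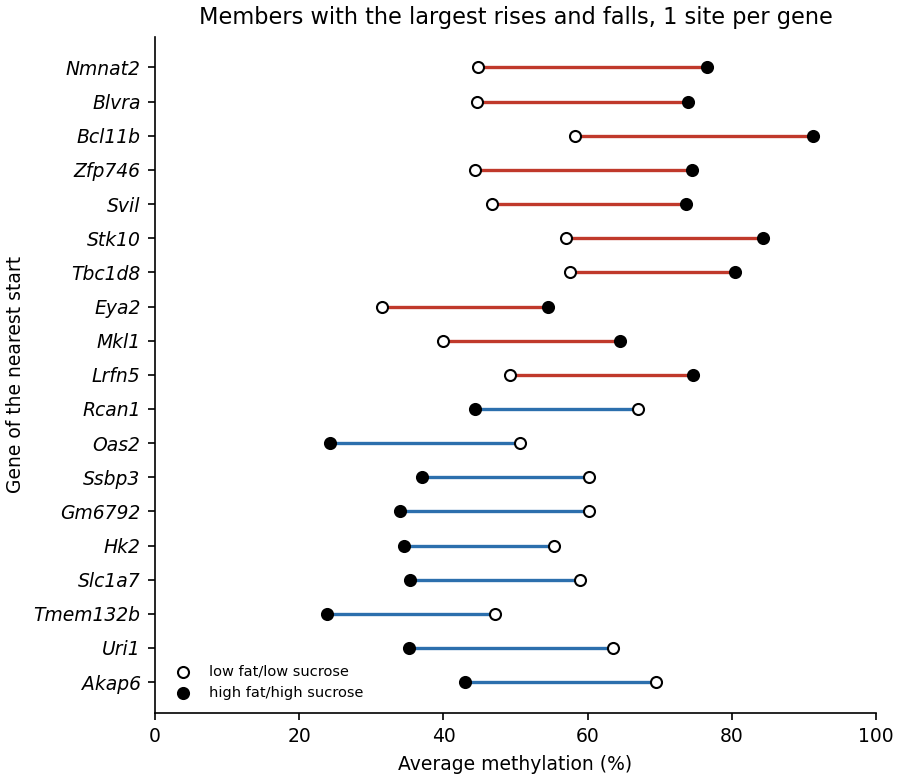
Average methylation (horizontal axis, %) in low fat/low sucrose (open circles) and high fat/high sucrose mice (filled circles) at the 10 members with the largest rise (red lines) and 9 of the 10 with the largest fall (blue lines) among members with a gene, 1 site per gene. Rises end between 54.5% at Eya2 and 91.3% at Bcl11b, and falls between 23.8% at Tmem132b and 44.4% at Rcan1.

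A gene was given for 1739 members, 1282 genes in all, of which 980 had 1 member and 302 had 2 or more. Of the 87 genes with at least 3 members, 29 had all of them higher, 17 all lower and 41 both. Where the members of a gene formed 3 or more separate clusters, 10 of 43 genes were all higher and 4 all lower. The other genes with a single direction had their members in 1 or 2 stretches of DNA.

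Bcl11b had 7 members in 4 clusters, all higher. Besides the site above, the authors' deposited table lists one 33507 bp downstream of the start that went from 58.1 to 75.8%, and 5 between 3774 and 5593 bp downstream, with differences from 9.24 to 17.2 points. The 6 other autosomal sites named for Bcl11b, outside the member rule, were also all higher. Erg, an ETS transcription factor gene of endothelial and blood cells, had 6 members that split by position. Of these, 4 between 19776 and 20141 bp downstream of the start were lower in the authors' deposited table, by -11.9 to -20.2 points, while those at 73505 and 94329 bp were higher, by 11.5 and 14.4 points. The lower ones started at 65.0 to 68.4%, and the higher ones at 62.3 and 41.9%.

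Gad2 had the most members, 9, all lower. It encodes a glutamate decarboxylase, but its sites lay 32326 to 34915 bp upstream of the listed start. Of the 9, a block of 8 on chromosome 2 from 22442932 to 22444231 ranged, in the authors' deposited table, from 32.3 to 62.1% in low fat/low sucrose and from 20.3 to 44.6% in high fat/high sucrose mice. Their mean went from 49.4 to 31.03%, the largest shift of the 5 largest blocks. Of the 6 other sites listed for Gad2, 5 were lower as well.

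The other 4 of the 5 largest blocks were all higher. At Edem3, whose product helps degrade misfolded glycoproteins, 6 members within 188 bp on chromosome 1 from 153708770 to 153708957 went from a mean of 42.9 to 54.5%, with differences of 9.96 to 17.3 points. At Catsperg1, which encodes a subunit of a sperm ion channel, 6 members within 384 bp on chromosome 7 from 29997604 went from a mean of 38.7 to 47.9%. At the kinase gene Lrrk2, 5 members within 357 bp on chromosome 15 from 91539833 went from 44.7 to 53.6%. At Smad3, 5 members within only 35 bp on chromosome 9 from 63594081 went from 58.6 to 68.6%. Each block covers 1 short stretch and counts as 1 observation of its region. The direction did not always extend beyond it, since the 3 other sites listed for Lrrk2 were all lower. The non-member sites listed for Smad3 were 5 higher and 4 lower. Another Smad3 member, outside the block at 63586223, was lower, from 66.85 to 58.6% (-9.28 points).

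Among clusters of 3 or more members, 22 were all higher, 14 all lower and 2 mixed. Smaller blocks that were lower on the high fat/high sucrose diet included 4 members at the chloride channel gene Clic1 on chromosome 17 from 35188475, from a mean of 56.7 to 47.1%. Another 4 lay at Rgs7bp on chromosome 13 from 105838924, from 61.1 to 48.4%. A higher block of 4 lay upstream of the chemokine receptor gene Ccr4, from 45.4 to 58.8%.

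Several other genes had many members. Mbp, the myelin basic protein gene, had 6 members with 4 higher, and the 2 lower sites, 21 bp apart, had the highest starting levels, 66.4 and 68.0%, in the authors' deposited table. Tcf4, which encodes a helix-loop-helix transcription factor, had 4 of 6 higher, with differences from -20.5 to 22.4 points. Of the non-member sites, 8 of 12 named for Mbp and 7 of 10 named for Tcf4 were lower. Nedd4l, a ubiquitin ligase gene, had 5 of 6 higher, each in a cluster of its own. All 5 members at 2610035D17Rik, in 5 clusters, were higher, by 11.6 to 21.3 points, although 6 of 10 non-member sites named for it were lower. All 5 at Hdac7, a histone deacetylase gene, were lower, by -8.47 to -16.7 points, as were 7 of its 9 other sites.

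Members at genes of chosen pathways and cell types were also counted. Of 497 genes on 18 lists of pathways and cell type markers, 59 had a member, and 72 of their 110 members (65.5%) were higher, beside 57.0% of all members. The lists were drawn up with earlier results of these data known and are described only by their counts. Whether the starting levels of the members had a part in the share of any list was not tested.

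Fatty acid and triglyceride synthesis had members at 8 of 28 genes, 9 of 11 members higher. The median difference, rises and falls together, was 14.3 points on the list and 10.3 points over all members. That median depends on the share of rises, and the median rise over all members was 14.3 points. Scd1, the stearoyl-CoA desaturase gene, had 2 members 53 bp apart. In the authors' deposited table they went from 30.5 to 47.4% and from 41.5 to 60.1%, the second with a p-value listed as 0. Elovl6, a fatty acid elongase gene, had members 16374 and 19242 bp downstream of its start that rose by 19.7 and 14.3 points in the authors' deposited table. Acacb, which makes the malonyl-CoA that restrains fatty acid oxidation, went from 53.1 to 76.5%, and the glycerolipid synthesis gene Gpam from 39.3 to 55.5%, in the authors' deposited table. The lower members were at Mlxipl, the gene of the sugar-sensing factor ChREBP (59.7 to 37.2%), and at the acyltransferase gene Mogat1 (69.1 to 54.9%), per the authors' deposited table. Mogat1 had a second member, which was higher. The members at Scd1, Elovl6 and Gpam started between 30.5 and 41.5%, where the 10-point bins had 79.0 and 68.8% of members higher. Higher members at Acacb, Mogat1, Elovl7 and Lpin2 started between 52.5 and 64.6%, and the lower members at 59.7 and 69.1%. There the bins had 53.9 and 35.8% higher. Whether the starting level had a part in these directions was not tested.

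Cholesterol and bile acid metabolism had members at 3 of 33 genes, all 6 higher. In the authors' deposited table a site 4853 bp downstream of Cyp7a1, the rate-limiting enzyme of bile acid synthesis, went from 40.5 to 51.2% and its neighbour from 33.9 to 41.4%. At Cyp27a1, another bile acid enzyme gene, the 2 members 13 bp apart rose by 8.69 and 10.8 points in the authors' deposited table. At the cholesterol exporter gene Abca1 the members rose by 9.97 and 18.4 points in the authors' deposited table. The members at Cyp7a1 and those at Cyp27a1 form 1 cluster each, so the 6 sites stand for 4 clusters. Those at Cyp7a1 and Abca1 started between 30.3 and 41.4%, in the bins with 79.0 and 68.8% of members higher. Those at Cyp27a1 started at 55.2 and 60.8%, in the bins with 53.9 and 35.8% higher. Whether the starting level had a part in the direction of these sites was not tested.

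The glucose metabolism list had members at 3 of 25 genes, all 4 of them lower. Besides Hk2, these were 2 sites at the gluconeogenic gene Pck1, 2539 and 2565 bp downstream, which went from 66.6 to 48.2% and from 69.9 to 57.8% in the authors' deposited table. The fourth, at Txnip, an inhibitor of glucose uptake, went from 56.1 to 47.6% in the authors' deposited table. Hk2 and Txnip started in the bin of 50 to 60%, where 53.9% of members were higher. The Pck1 sites started in the bin of 60 to 70%, where 35.8% were higher. Whether the starting level had a part in the direction of these 4 sites was not tested. With the level limits placed on the mean of the averages, 1 of 5 sites of the list was higher. The phosphofructokinase gene Pfkp, which is not on the list, had 2 higher and 2 lower members.

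Insulin and nutrient signalling had members at 3 of 32 genes, 4 of 5 lower. With the level limits placed on the mean of the averages the majority turned, 5 of 9 sites being higher. The insulin-like growth factor receptor gene Igf1r had 3 members in 3 clusters, lower by -11.8, -13.1 and -10.9 points in the authors' deposited table, and Foxo3 had 1, lower by -8.69 points. The non-member sites named for Igf1r were 2 higher and 1 lower. Rictor, a subunit of the mTORC2 kinase complex, went from 59.4 to 74.99% in the authors' deposited table. The fatty acid oxidation list had a single member, at Ehhadh (13.8 points), per the authors' deposited table. Among genes that are not on this list, the peroxisomal thiolase gene Acaa1b had 3 lower members and Acox2 had a lower one (-12.4 points). The list of lipid uptake and lipases had only 2 members, both at the hepatic lipase gene Lipc. They went in opposite directions (-12.6 and 12.6 points), per the authors' deposited table.

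Transcription factors of the liver had 8 of 10 members higher, at 6 of 28 genes. Onecut1, a hepatocyte and bile duct factor, had a member on chromosome 9 at 74718763 that went from 58.6 to 76.2% in the authors' deposited table (q = 7.25e-07). It had 3 higher members and 1 lower. Both members at Prox1, a factor of hepatocyte development, were higher, by 14.8 and 13.8 points in the authors' deposited table. Rxra, the shared partner of many nuclear receptors, went the other way, from 51.7 to 28.9% in the authors' deposited table (q = 2.50e-04). The circadian repressor genes differed, Per2 being higher by 21.9 points and Nr1d1 lower by -10.6 points in the authors' deposited table.

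Transforming growth factor and matrix genes had 12 of 15 members higher, of which 9 lay in the blocks of Smad3 and Smad4. Smad4 encodes the shared partner of the receptor-activated Smads, and its 4 members within 24 bp rose by 12.6 to 17.6 points in the authors' deposited table, while both other sites listed for it were lower. Smad1 had a higher and a lower member, and the inhibitory Smad6 a lower one (-15.7 points), in the authors' deposited table. Inflammation genes had 7 of 9 higher, among them the interleukin receptor gene Il6ra (37.1 to 58.2%) and the kinase gene Jak1 (32.9 to 48.5%), per the authors' deposited table. Tnfrsf1a, a tumour necrosis factor receptor gene, had 2 lower members that started at 67.6 and 69.98% and 2 higher ones that started at 31.8 and 32.5% in the authors' deposited table.

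Among enzymes of one-carbon metabolism, Mthfd1l, a mitochondrial folate enzyme gene, had 3 members 138189 bp or more from its start that rose by 17.9 to 20.2 points, and 1 at 23609 bp that fell by 11.6 points, in the authors' deposited table. Ahcyl1 had a lower member (-11.6 points) in the authors' deposited table. The 3 higher Mthfd1l sites form 1 cluster, and with 1 site per cluster 1 of 3 sites of the list was higher.

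Blood cell transcription factor genes held the most members of any list, 29 at 12 of 33 genes, and they were divided, 16 higher and 13 lower. Besides Bcl11b, the higher ones in the authors' deposited table included Ikzf2 (16.0 points), Bcl11a (14.6) and both members of Nfatc2 (22.4 and 20.3). All 4 members of Foxp1 were lower, by -9.62 to -16.5 points, as were both of Fli1 and those of Etv6, Myb and Tcf7, in the authors' deposited table. At Foxp1, 3 of the sites lay within 498 bp, 66962 and 66995 bp upstream of one start and 66878 bp downstream of another.

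Markers of single cell types were counted in the same way. None of 32 hepatocyte marker genes and none of 19 macrophage marker genes had a member, beside 59 of the 497 genes on any list. Only sites that passed the limits on q-value and difference are listed. Whether the marker genes without a member had measured intronic sites in the same range is therefore unknown. The only endothelial marker with members was Erg, which is also on the blood cell list, with 2 of 6 members higher but 2 of 3 when 1 site per cluster was counted. Lymphocyte markers had members at 2 of 26 genes, 4 lower at Prkcq, a T cell kinase gene (-7.26 to -11.2 points), and 1 higher at the B cell gene Cd22 (14.7 points), in the authors' deposited table. The Prkcq sites form 1 cluster, so with 1 site per cluster 1 of 2 was higher. Stellate cell and fibroblast markers had members at 4 of 17 genes, all 4 higher. They were Pdgfra (66.0 to 86.1%), Pdgfrb (32.0 to 44.5%), Acta2 (44.1 to 55.8%) and Nes (39.3 to 51.4%) in the authors' deposited table. Bile duct markers had 5 of 6 higher, 4 of these 6 at Onecut1 and 2 at the cadherin gene Cdh1. Whether a shift in cell types had a part in the members' differences was not tested.

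**Figure D5:**
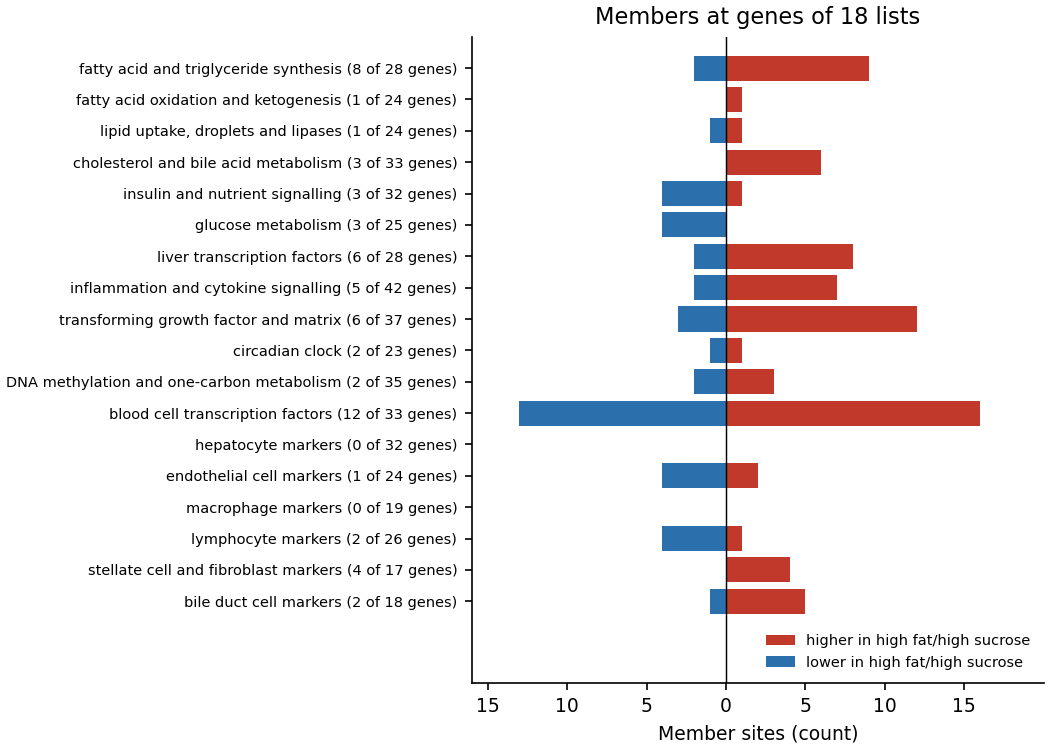
Number of members at the genes of 18 lists (horizontal axis, count of sites), lower in high fat/high sucrose to the left (blue) and higher to the right (red), with the number of genes that had a member beside each list name. The bars are longest for blood cell transcription factors (16 higher, 13 lower), and glucose metabolism is the list with 4 lower and 0 higher sites.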

How the data were processed

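Per the labels' protocols, liver DNA was enriched with an Agilent methylation capture kit, bisulfite converted and sequenced. Listed in the submitters' processing notes, without settings, are methylKit, Bismark, Trim Galore, CASAVA 1.8 and the build mm9. Per the file headers, the deposited table gives a p-value and q-value, a difference in percentage points, the average percent methylation of each diet, annotation flags and a distance to a transcript. The sources used here do not give the weighting of the averages, the coverage minimum or the test. The listed difference and the difference of the averages had the same sign at all 1947 members and differed by a median of 1.03 points, at most 8.81.

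Python 3.11.15 and pandas 2.3.3 were used. The names chr20, chr21 and chr22 were left out because they name no mouse autosome. Of the 1282 gene symbols, 1193 were current in RefSeq (GRCm38.p6), 84 were synonyms, 3 had become dates and were restored from the transcript, and 2 had no match. Sites up to 1000 bp apart were joined. Named genes are those of the 10 largest rises, the 10 largest falls, the 10 genes with most members, the 5 largest blocks and, for each list, the 3 or fewer genes of lowest p-value. Other sites and genes are named within counts or were chosen after their values were seen. The members and lists were chosen with earlier results of these data known. Joining was tested on simulated positions. Of the 10 largest falls, 1 is not reported here. Sequences around the sites are not used here.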

Additional observations from a re-analysis of the deposited data

How the results depend on the processing

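The share of members that were higher was 57.0%. It was 54.1% of 3547 sites with the limits set on the high fat/high sucrose average and 61.0% of 820 sites with limits of 40 to 60%. It was 58.2% of 4050 sites with limits of 20 to 80%, and 60.6% of 480 sites at q under 0.001. The cause of these shifts was not tested. Under the other alternatives the share was 54.9 to 57.6%. Median rises and falls, the share over listed genes and the median distance moved by less than 1.5 times. Blocks of 3 or more sites in 1 direction numbered 36, 29 joined within 200 bp, and 140 of 162 when all sites of the table around members were joined, which adds sites. Single lists hold too few sites for their shares to be called stable: insulin signalling went from 1 of 5 to 5 of 9 higher with limits on the mean of the averages. With 1 site per cluster, endothelial markers went from 2 of 6 to 2 of 3, one-carbon metabolism from 3 of 5 to 1 of 3 and lymphocyte markers from 1 of 5 to 1 of 2. Within 10000 bp of a start, inflammation went from 7 of 9 to 2 of 4 and blood cell factors from 16 of 29 to 5 of 6. Of 120 named sites, 119 moved by less than 1.5 times with the difference of averages. Leaving out mice and a block on the title prefix (whose meaning the labels do not give) were not run. No paired analysis was possible because the table used here holds averages over mice. Read depth is unknown and limits every average.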

Other observations

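Opposite directions at close range were seen at 13 of 240 consecutive pairs of members within 1000 bp, values from the authors' deposited table. The closest pair was at Tmem98, a membrane protein gene, on chromosome 11. The site at 80632035 went from 52.8 to 72.2%, and the one 73 bp on, at 80632108, from 50.7 to 31.7%, with listed differences of 21.8 and -20.4 points. These 2 sites started at nearly the same level. At the potassium channel gene Kcnj6 on chromosome 16, sites 78 bp apart at 95216156 and 95216234 went from 64.7 to 50.4% and from 61.2 to 70.04%. In 11 of the 13 pairs the rising site was the one with the lower starting level, Tmem98 and the pair listed at Mir1966 being the exceptions. At Pacs2 the levels of the 2 sites came closer together, from 30.7 and 67.6% to 42.1 and 43.2%, while at Crygs they changed places, from 38.0 and 59.4% to 60.1 and 38.7%.

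Several genes outside the lists had members that all moved 1 way in 3 or more separate clusters, and these were chosen after their values were seen. Higher throughout were Vav2, a guanine nucleotide exchange factor gene (4 members, 8.90 to 17.2 points), the ankyrin gene Ank3 (4 members, 15.2 to 18.5 points), the ephrin receptor gene Ephb2 (3 members, 14.7 to 23.2 points) and Nfkbiz, a regulator of NF-kappaB target genes (3 members, 13.8 to 23.3 points). Of the other listed sites, which were no members, both at Vav2 and all 5 at Nfkbiz were higher, but those at Ank3 were 4 higher and 3 lower and those at Ephb2 2 higher and 3 lower. Lower throughout were Akap13, a kinase anchor gene (3 members, -9.55 to -18.1 points), and Spata13, an exchange factor gene (3 members, -9.89 to -23.4 points). Their other sites were 3 higher and 3 lower at Akap13 and 1 higher and 2 lower at Spata13. In single clusters, 3 members each were lower at Ephx1, a microsomal epoxide hydrolase gene of xenobiotic metabolism, and at Acaa1b, a peroxisomal thiolase gene. The other sites were 1 higher and 1 lower at Ephx1 and 3 higher and 2 lower at Acaa1b.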
